A study of Mus musculus with 20 samples.

Results

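The GATA factors and Fog cofactors were taken here as 8 genes, *Gata1* to *Gata6* and their cofactors *Zfpm1* and *Zfpm2*, out of 22367 protein-coding genes of the annotation. They were chosen by name with results of these peaks in view, so their peak coverage is described without a test. 5-Formylcytosine (5fC), an oxidised form of 5-methylcytosine made by the TET enzymes and removed by the glycosylase TDG, was tagged with a biotin probe, pulled down and sequenced in 4 tissues of E11.5 mouse embryos. Wild-type (WT) embryos were compared with *Tdg* null littermates, in which the coding sequence for the catalytic part of the enzyme had been replaced by a neomycin-resistance cassette throughout the embryo. Hindbrain came from 4 null and 4 WT embryos, 1 pair from each of the litters A, O, Q and Z. Heart, liver and carcass (the rest of the body) came from the same 4 embryos, null i1 with WT i6 and null i5 with WT i9, so that their libraries share an animal across tissues. One null liver library, i5, held only 228 peaks and none at the 8 genes. The study set 1 null liver replicate aside for poor quality, and i5 was taken here to be that library and left out, which leaves 19 of 20 libraries and a single null liver, i1.

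GATA factors are zinc finger transcription factors that bind the letters GATA in DNA. GATA1, GATA2 and GATA3 act mainly in blood cells and, for the latter pair, also in parts of the nervous system, whereas GATA4, GATA5 and GATA6 act in the heart and in endodermal organs such as the gut and liver. FOG1 and FOG2, encoded by *Zfpm1* and *Zfpm2*, act without binding DNA themselves, by attaching to GATA factors and bringing co-repressors to their targets. FOG1 partners GATA1 in red cells and platelets, and FOG2 partners GATA4 in the heart. The fetal liver at this stage holds both endodermal cells and blood cells.

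The deposited data were positions of 5fC peaks in the mouse build NCBIM37 (mm9), with no peak heights and no reads, so the sequencing depth behind each peak is unknown. Tissue identity and the *Tdg* deletion were therefore not checked against expression. Null libraries held 101344 to 254319 peaks, which covered 2.68% to 8.09% of the ungapped genome, and WT libraries held 1563 to 42013 peaks, which covered 0.0349% to 0.939%. Among the null libraries, heart i1 covered far more than heart i5 (8.09% against 3.64% of the genome). Among the WT hindbrains, litter Q stood apart with 21606 peaks, against 1563 to 8989 in the others. Each gene was measured over its body plus 5 kb on each side, as the percent of that window under peaks (covered percent) and as this percent divided by the percent of the genome covered in the same library (fold over genome). A fold of 1 therefore means coverage at the level of the genome as a whole.

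The sequences below show 8 of the regions described, chosen for the libraries that share them, each 300 bases of the plus strand of NCBIM37, read from the reference genome of that build, in lower case with every CG dinucleotide, the context in which 5fC is mainly formed, in capitals. The first 4 lay under peaks of all 9 null libraries. They were in an intron of *Gata4* (chr14:63849851-63850150), in the flank past the 3′ end of *Gata5* (chr2:180057501-180057800), in an intron of *Zfpm1* (chr8:124820401-124820700) and in an intron of *Zfpm2* (chr15:40528251-40528550). The *Zfpm2* sequence also lay under peaks of both WT carcasses.
Gata4 all null: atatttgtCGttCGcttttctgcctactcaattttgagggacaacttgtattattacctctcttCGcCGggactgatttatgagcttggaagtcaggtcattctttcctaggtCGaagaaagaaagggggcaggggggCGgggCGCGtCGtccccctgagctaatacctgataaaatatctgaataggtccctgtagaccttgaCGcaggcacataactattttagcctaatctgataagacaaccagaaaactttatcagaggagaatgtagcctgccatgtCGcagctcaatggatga
Gata5 all null: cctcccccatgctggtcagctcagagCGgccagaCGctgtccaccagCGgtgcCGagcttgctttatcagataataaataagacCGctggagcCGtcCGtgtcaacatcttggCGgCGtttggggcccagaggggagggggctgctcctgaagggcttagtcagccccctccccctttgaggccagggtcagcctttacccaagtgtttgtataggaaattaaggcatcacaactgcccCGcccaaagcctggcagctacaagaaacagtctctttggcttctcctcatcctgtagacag
Zfpm1 all null: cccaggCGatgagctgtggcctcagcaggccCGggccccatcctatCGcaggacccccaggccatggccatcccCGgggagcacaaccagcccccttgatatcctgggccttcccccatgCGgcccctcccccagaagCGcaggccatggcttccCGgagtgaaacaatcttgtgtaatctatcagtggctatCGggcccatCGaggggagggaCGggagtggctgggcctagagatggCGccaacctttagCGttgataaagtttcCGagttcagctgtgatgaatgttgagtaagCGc
Zfpm2 all null: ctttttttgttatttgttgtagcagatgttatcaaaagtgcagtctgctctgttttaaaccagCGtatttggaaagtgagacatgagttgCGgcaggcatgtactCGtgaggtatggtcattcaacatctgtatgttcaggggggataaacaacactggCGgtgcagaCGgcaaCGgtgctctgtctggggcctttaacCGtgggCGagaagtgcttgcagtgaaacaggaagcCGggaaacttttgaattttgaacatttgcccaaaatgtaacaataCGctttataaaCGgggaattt

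A second *Gata4* intron sequence, from a stretch under both null hearts and the null liver and under no other library, is shown for contrast (chr14:63851501-63851800). The last 3 sequences, like that of *Zfpm2*, lay under peaks of at least 2 WT libraries. They were in an intron of *Gata4* (chr14:63837051-63837350), past the 3′ end of *Gata3* (chr2:9774901-9775200) and in an intron of *Zfpm1* (chr8:124853651-124853950).
Gata4 heart and liver: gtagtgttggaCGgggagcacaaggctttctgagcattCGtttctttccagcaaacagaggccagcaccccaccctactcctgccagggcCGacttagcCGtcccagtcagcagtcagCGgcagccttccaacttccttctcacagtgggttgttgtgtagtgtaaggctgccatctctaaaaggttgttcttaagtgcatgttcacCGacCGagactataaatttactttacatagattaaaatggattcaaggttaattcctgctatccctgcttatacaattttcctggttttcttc
Gata4 WT: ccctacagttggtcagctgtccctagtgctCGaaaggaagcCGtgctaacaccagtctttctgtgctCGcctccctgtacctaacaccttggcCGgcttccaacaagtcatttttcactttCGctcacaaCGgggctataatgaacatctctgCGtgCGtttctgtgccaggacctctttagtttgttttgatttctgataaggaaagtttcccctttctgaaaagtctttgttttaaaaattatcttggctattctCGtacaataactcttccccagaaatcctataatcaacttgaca
Gata3 WT: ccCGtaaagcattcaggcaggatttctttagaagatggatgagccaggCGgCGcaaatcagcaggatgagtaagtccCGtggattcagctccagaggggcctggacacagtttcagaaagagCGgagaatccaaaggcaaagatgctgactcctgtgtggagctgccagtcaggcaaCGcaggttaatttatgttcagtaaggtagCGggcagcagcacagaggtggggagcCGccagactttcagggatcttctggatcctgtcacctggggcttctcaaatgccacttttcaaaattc
Zfpm1 WT: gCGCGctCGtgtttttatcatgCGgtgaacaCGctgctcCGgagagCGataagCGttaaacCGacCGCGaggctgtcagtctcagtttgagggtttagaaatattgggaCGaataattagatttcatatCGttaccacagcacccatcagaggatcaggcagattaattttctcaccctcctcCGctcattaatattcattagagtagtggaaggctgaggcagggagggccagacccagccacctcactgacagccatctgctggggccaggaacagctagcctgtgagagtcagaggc

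These sequences held 7 to 14 CG dinucleotides each. The letters AGATAA or TGATAA, searched on both strands, occurred 3 times in the *Gata4* sequence shared by all null libraries, 2 times in that of *Gata5* and once in those of *Zfpm1* and *Zfpm2*. They were not found in the *Gata4* heart and liver sequence or in the *Gata3* sequence, occurred 2 times in the *Gata4* WT sequence and once in the *Zfpm1* WT sequence. Of 12051 windows of 300 bases under all 9 null libraries over the genome, 29.9% held the letters at least once, 4.76% at least 2 times and 0.506% at least 3 times. Over 8527783 tiles of the same length across the genome the shares were 33.8%, 7.56% and 1.27%. A match in letters is a description of the sequence and does not show that a factor was bound there.

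Between genotypes, the heart showed the widest separation for the cardiac factors. *Gata4*, which encodes a factor required for heart tube formation, was covered over 53.2% of its window in null heart i1 and 35.9% in null heart i5, and had no peak in either WT heart. *Gata5*, active in the endocardium, was covered over 61.7% and 26.6%, and *Gata6*, which shares roles with *Gata4* in heart and endoderm, over 40.1% and 21.8%, again with no peak in WT hearts. Null heart i1 was higher than i5 for all 8 genes. Both null hearts lay above both WT hearts for 7 of the 8 genes, all but *Gata2*, which had no peak in null heart i5. Over all protein-coding genes 63.9% separated in this way in the heart.

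*Zfpm1* was the most covered of the 8 genes in 8 of 9 null libraries, null hindbrain O apart, where *Gata5* was higher (7.15%), and it had the highest WT coverage in heart and liver. Its window was covered over 67.0% and 53.8% in the null hearts, 40.0% in the null liver, 22.1% and 27.1% in the null carcasses and 5.99% to 14.4% (median 13.98%) in the 4 null hindbrains. In WT libraries it was covered over 2.92% and 2.30% in heart, 5.07% in each liver, 0.461% and 0 in carcass, and 2.30% in hindbrain Q with 0 in the other 3 hindbrains. Null and WT libraries did not overlap in any tissue. As fold over genome, however, the WT hearts were the higher, at 22.0-fold and 19.2-fold compared with 8.28-fold and 14.8-fold in the null hearts. The WT hearts had 0.133% and 0.120% of the genome under peaks. In WT liver the fold was 15.9 in i6 and 134 in i9, the latter from only 1901 peaks in all.

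**Figure D1:**
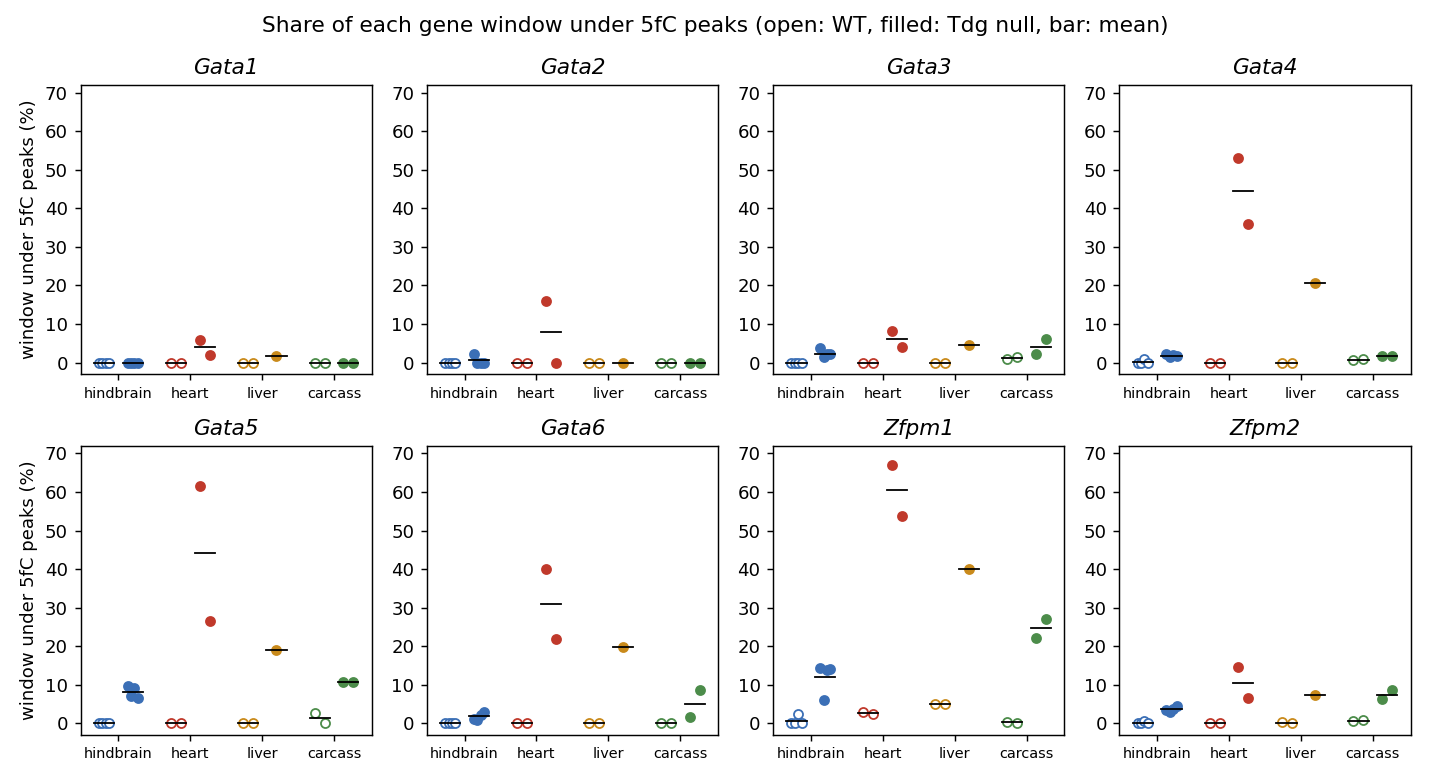
Percent of each gene window under 5fC peaks in every library, by tissue and genotype; each point is 1 library (open, WT; filled, null) and each bar is the group mean. *Zfpm1*, *Gata4*, *Gata5* and *Gata6* are highest in the null hearts, with the single null liver next, and WT points lie at or near 0.

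In hindbrain the null libraries lay above all WT libraries for 6 of the 8 genes, against 55% of all genes. *Gata4* was covered over 1.45% to 2.17% (median 1.75%) of its window in null hindbrain, a small part of the null heart share, and *Gata5* over 6.64% to 9.71% (median 8.18%). *Gata1* had no peak in any hindbrain library and *Gata2* only 1 peak, in null hindbrain A. The carcass gave 6 of 8 as well, against 60.3% of all genes, with *Gata4* covered over 1.69% in both null carcasses and over 0.725% and 0.846% in the WT carcasses. *Gata1* and *Gata2* had no peak in any carcass library. As fold over genome, the null libraries lay above the WT libraries for 3 of 8 genes in hindbrain (36.2% of all genes) and 3 in carcass (35.5%), and for 6 in heart (51.8%). In hindbrain and carcass these counts of 3 lay near the background share. The direction turned for *Gata4* in carcass, at 0.772 and 1.05 in the WT carcasses and 0.314 and 0.224 in the null carcasses, and for *Gata3*, at 0.992 and 1.74 against 0.389 and 0.800, with both WT libraries above both null libraries each time. In heart the direction turned likewise for *Zfpm1*, with both WT hearts above both null hearts.

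Over the 8 windows together, peaks numbered 187 and 115 in the null hearts (25.2% and 14.6% of the bases), 109 in the null liver (12.0%), 73 and 91 in the null carcasses (6.35% and 8.73%) and 40 to 57 in the null hindbrains (2.77% to 4.56%). WT libraries held 0 to 11 peaks there, on at most 0.614% of the bases. Peak number and covered bases did not always run together. *Zfpm1* had 18 to 19 peaks in the null hearts and 18 to 20 in the null carcasses, but the median peak was 2200 bases long in both null hearts and 700 and 800 bases in the carcasses. *Gata4*, in contrast, had 24 to 31 peaks in null heart, 17 in null liver, 2 to 3 in each null hindbrain and 1 in each null carcass, so at this gene the number of peaks separated the tissues as well.

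Between null tissues, 6 of the 8 genes had a higher fold over genome in both null hearts than in all null hindbrain and carcass libraries, where 24.1% of all genes did. These were *Gata1*, *Gata4*, *Gata5*, *Gata6*, *Zfpm1* and *Zfpm2*. No member was highest in hindbrain (7.15% of all genes) or in carcass (4.01%). When the null liver was placed with the hearts, an arrangement chosen after the values were seen, 6 of 8 genes were above all hindbrain and carcass libraries, where 12.8% of all genes were. The median fold of the 8 genes was 3.63 in null heart, 4.33 in null liver, 0.606 in null hindbrain and 0.657 in null carcass, beside 0.833, 0.405, 0.762 and 0.539 for all genes. Since the genes were chosen with such results known, these counts describe them and carry no test.

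For *Gata4* the fold over genome was 6.57 and 9.86 in the null hearts (mean 8.21 ± 2.32, SD, n = 2), 6.78 in the null liver, 0.428 to 0.605 in the 4 null hindbrains and 0.314 and 0.224 in the null carcasses. The liver value fell between the hearts, and hindbrain and carcass were both under the genome level without overlap between them. The carcass and heart values came from the same 2 embryos, in which heart exceeded carcass each time. *Gata5* gave 7.62 and 7.30 in heart and 6.24 in liver, and in contrast to *Gata4* it was also above the genome level in hindbrain (1.81 to 2.70) and carcass (1.99 and 1.42). The *Gata5* bases shared by at least 2 null hindbrains, and those shared by both null carcasses, lay wholly in the flanks, with 0 in exons or introns. The window also holds the annotated gene *Gm14318*. The *Gata5* liver value was below both hearts, and the hindbrain and carcass ranges overlapped.

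*Gata6* gave 4.96 and 5.99 in heart, 6.50 in liver, 0.322 to 0.821 in hindbrain and 0.301 and 1.14 in carcass. Here the liver exceeded both hearts, and the 2 carcasses spanned the whole hindbrain range. With a single null liver no spread between livers is known, so its order relative to heart is open to that error for every gene.

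Of the cofactors, *Zfpm1* gave 8.28 and 14.8 in heart, 13.2 in liver, 2.24 to 4.02 in hindbrain and 4.09 and 3.59 in carcass. The liver again lay between the hearts, and hindbrain and carcass overlapped, both above the genome level. In rank of mean covered percent *Zfpm1* was 11th of the 22367 genes in null heart and 14th in null liver, and *Gata4* and *Gata5* were 130th and 134th in null heart. By library the order of the latter pair turned, with *Gata5* 47th and *Gata4* 151st in heart i1 but 448th and 143rd in heart i5, while *Zfpm1* was 20th and 7th. In WT liver *Zfpm1* stood 54th and in WT heart 156th. *Zfpm2*, the larger gene, gave 1.80 and 1.79 in heart, 2.43 in liver, 0.938 to 1.24 in hindbrain and 1.18 and 1.13 in carcass, so its 2 hearts were nearly equal and the spread between tissues was much smaller than for *Zfpm1*.

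**Figure D2:**
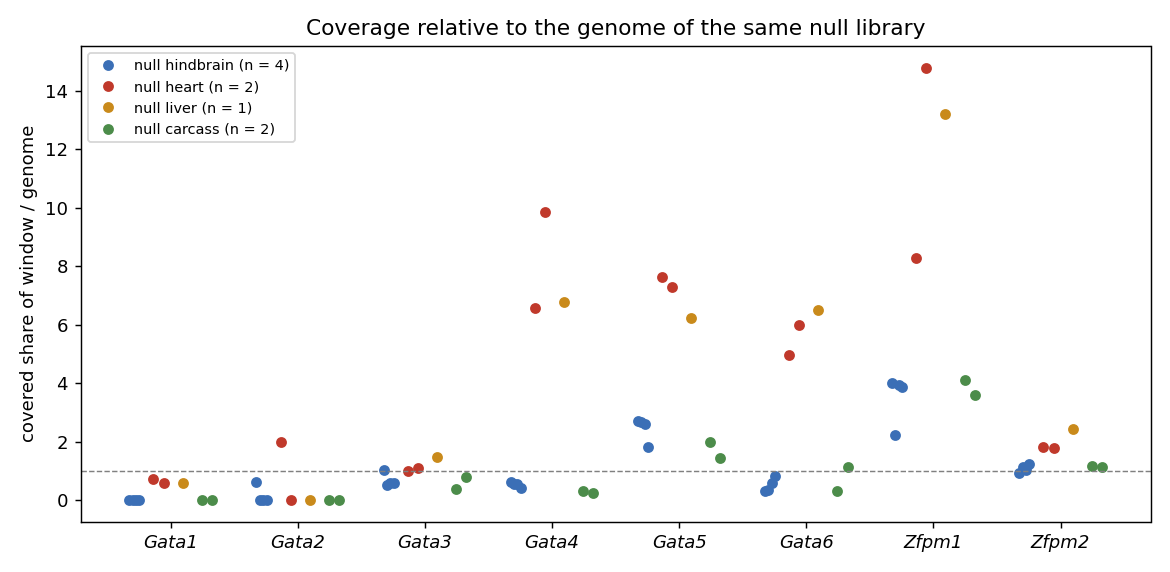
Fold over genome (covered percent of the gene window divided by covered percent of the genome in the same library, linear axis) for each gene in the 9 null libraries; each point is 1 library and the dashed line marks a fold of 1. *Gata4*, *Gata5*, *Gata6* and *Zfpm1* in heart and liver lie at 4.96 or above, whereas *Gata4* and *Gata6* lie near or under 1 in hindbrain and carcass.

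The blood-cell factors had less coverage than *Gata4*, *Gata5*, *Gata6* and *Zfpm1* in null heart and liver, though not in every tissue. *Gata1*, the erythroid factor, was covered over 5.90% and 2.08% of its window in the null hearts and 1.74% in the null liver, with fold values of 0.729, 0.572 and 0.572, and had no other peak. It lies on the X chromosome, where null libraries covered only 0.0610 to 0.111 of the share they covered on autosomes. Divided by the coverage of the X chromosome in the same library, *Gata1* gave 6.92 and 7.10 in the null hearts and 8.81 in the null liver, where *Gata4* divided by its own chromosome gave 7.29, 10.8 and 7.31. Its distance from *Gata4* therefore depended on the scale. *Gata2*, which acts in blood stem and progenitor cells, had 5 peaks (16.0% of its window) in null heart i1, 1 peak in null hindbrain A (2.16%) and none in the other libraries. *Gata3*, a regulator of T cells and of sympathetic neurons, was covered over 8.15% and 3.96% in null heart, 4.42% in null liver, 1.40% to 3.72% (median 2.10%) in null hindbrain and 2.10% and 6.04% in null carcass. The *Gata3* fold over genome was 1.01 and 1.09 in null heart, 0.522 to 1.04 in null hindbrain and 0.389 and 0.800 in null carcass, so hindbrain overlapped with both other tissues while heart and carcass did not overlap. By group mean the *Gata3* window exceeded that of *Gata4* in null hindbrain (2.33% against 1.78%) and in null carcass (4.07% against 1.69%). The *Gata3* bases shared by at least 2 null hindbrains, and those shared by both null carcasses, lay wholly past the 3′ end. Those of *Gata4* lay wholly in introns. The *Gata3* window also holds 3 other annotated genes. Its WT peaks occurred in the carcass only (0.931% and 1.40% of the window).

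Within the *Gata4* window (chr14:63812759-63895529, 82.8 kb, minus strand) the null heart peaks formed long blocks. Both null hearts covered 20 common regions of 28600 bases in all, the longest 6000 bases, in an intron. Introns held 87.4% of these bases and 83.2% of the window. Of the bases, 51.0% lay under no peak of null liver, hindbrain or carcass. The longest single peak was 7600 and 6000 bases in the null hearts, 3900 in the null liver and 1400 in each null carcass. Inside the longest region, 400 bases (chr14:63849801-63850200, 40.5 kb from the annotated 5′ end) were under peaks in all 9 null libraries and in WT hindbrain Q, and they contain the first sequence shown. The neighbouring 2300 bases (chr14:63850501-63852800), which contain the *Gata4* heart and liver sequence, were under peaks in the null hearts and null liver alone. A further 2300 bases (chr14:63823101-63825400), including an exon, were covered in both null hearts alone.

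**Figure D3:**
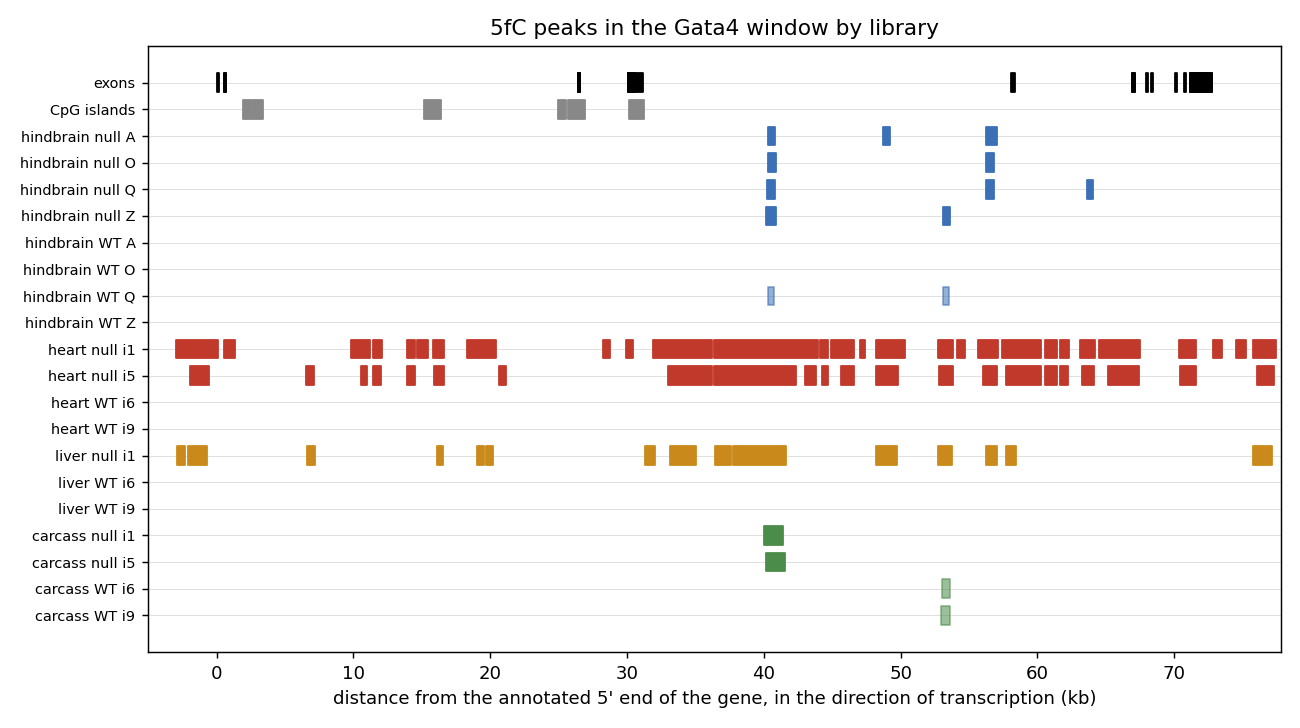
Positions of 5fC peaks in the *Gata4* window by library, as distance from the annotated 5′ end in the direction of transcription (kb), with exons and CpG islands on the upper rows. Null heart and null liver peaks spread over the introns, and a single stretch near 40.5 kb is marked in all 9 null libraries.

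Most null liver bases at these genes were also under a peak of at least 1 null heart. The same share over the genome is not given here, so whether these genes differ from others in this was not tested. The share was 95.9% of 17000 bases at *Gata4*, 100% of 3700 bases at *Gata5*, 88.2% of 8500 bases at *Gata6* and 98.5% of 26062 bases at *Zfpm1*. At *Zfpm2* it was 74.0% of 33800 bases. In the other direction, 47.6% of the *Gata4* bases under both null hearts, 71.2% at *Gata5*, 57.4% at *Gata6*, 69.5% at *Zfpm1* and 50.2% at *Zfpm2* were under a null liver peak. Shared hindbrain bases (at least 2 null hindbrains) and carcass bases (both null carcasses) at *Gata4*, 1300 each, lay wholly under null heart peaks. The null liver and null heart i1 come from 1 embryo.

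In the *Zfpm1* window (chr8:124801039-124866146, 65.1 kb, plus strand, which also holds the annotated gene *Gm20388*) both null hearts covered 16 common regions of 34946 bases, the longest 5400 bases, and 60.5% of its intron bases. Of these bases 16.7% lay under no null peak of another tissue, in contrast to 51.0% at *Gata4*. Stretches of 900 and 800 bases (chr8:124820101-124821000 and chr8:124838701-124839500), both intronic, were covered in all 9 null libraries and in no WT library. Another intronic stretch of 400 bases (chr8:124853601-124854000, 47.8 kb from the 5′ end), which contains the *Zfpm1* WT sequence, was covered in both WT hearts, both WT livers and WT hindbrain Q. It was covered in 8 of 9 null libraries, and the one without it was the null liver. All 5000 *Zfpm1* bases under a WT peak were under a peak of at least 1 null library.

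**Figure D4:**
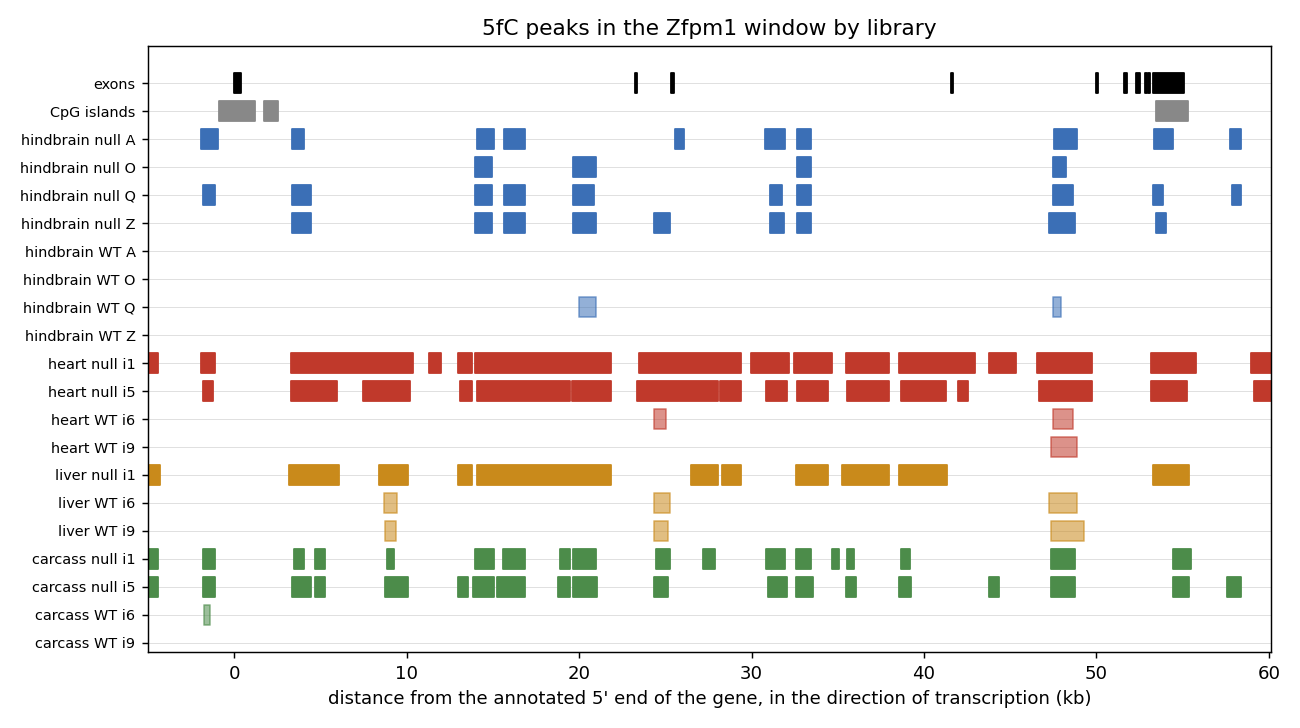
Positions of 5fC peaks in the *Zfpm1* window by library, drawn as for *Gata4*. Peaks near 47.8 kb occur in both WT hearts, both WT livers and WT hindbrain Q, and in every null library but the liver.

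WT peaks elsewhere also sat where null peaks were found. At *Gata4*, the 400 bases that contain the *Gata4* WT sequence (chr14:63837001-63837400) were covered in both WT carcasses and in WT hindbrain Q, in both null hearts, the null liver and 1 null hindbrain, yet in neither null carcass. At *Gata3*, the 300 bases past the 3′ end shown above were covered in both WT carcasses and in 8 of 9 null libraries, all but 1 null heart. *Gata5* had 1 WT peak, in carcass i6 (2.56% of the window), inside the stretch shared by all null libraries. *Gata1*, *Gata2* and *Gata6* had no WT peak in any library. All WT bases at *Gata3* (700), *Gata4* (1100) and *Gata5* (500) were also under a null peak, and at *Zfpm2* 96.25% of 8000 bases were.

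*Gata5* (chr2:180054838-180074404) and *Gata6* differed in where the shared heart peaks lay. At *Gata5*, the shortest window at 19.6 kb, 38.5% of the 5200 bases under both null hearts were upstream and 46.2% downstream of the gene, and an upstream stretch of 1000 bases (chr2:180069901-180070900) was covered in the null hearts and null liver alone. At *Gata6*, 81.4% of 9400 bases were intronic and 12.2% exonic, and 35.9% of all its exon bases were covered in both null hearts. A stretch of 400 bases in a *Gata6* intron, 21.8 kb from the 5′ end, was covered in 7 of 9 null libraries, 2 of them hindbrains. No *Gata6* base was under a peak of all 9.

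*Zfpm2* spans 449.6 kb (window chr15:40481588-40941138) and its peaks were scattered over the introns. Both null hearts shared 49 regions of 29100 bases, the longest 1700 bases, and 26.5% of these bases were under no null peak of another tissue. In bins of 10 kb from the 5′ end, the mean covered percent was highest at 420 kb in null heart (35.5%) and at the same place in null liver (26.0%), at 320 kb in null carcass (25.9%) and at 440 kb, the 3′ end, in null hindbrain (17.3%). The 420 kb bin was covered over 44% and 27% in the null hearts, 7% and 26% in the null carcasses and 0 to 7% in the null hindbrains. Null carcass i5 thus came close to null heart i5 there, and null carcass i1 did not. The 400 bases around the *Zfpm2* sequence shown (chr15:40528201-40528600, 41.8 kb from the 5′ end) were covered in all 9 null libraries and both WT carcasses. In the last exon, 400 bases (chr15:40934501-40934900) were covered in 3 null hindbrains and in no other library. Bases covered in at least 2 null hindbrains held 31.0% of the *Zfpm2* exon bases, compared with 14.1% for bases under both null hearts.

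**Figure D5:**
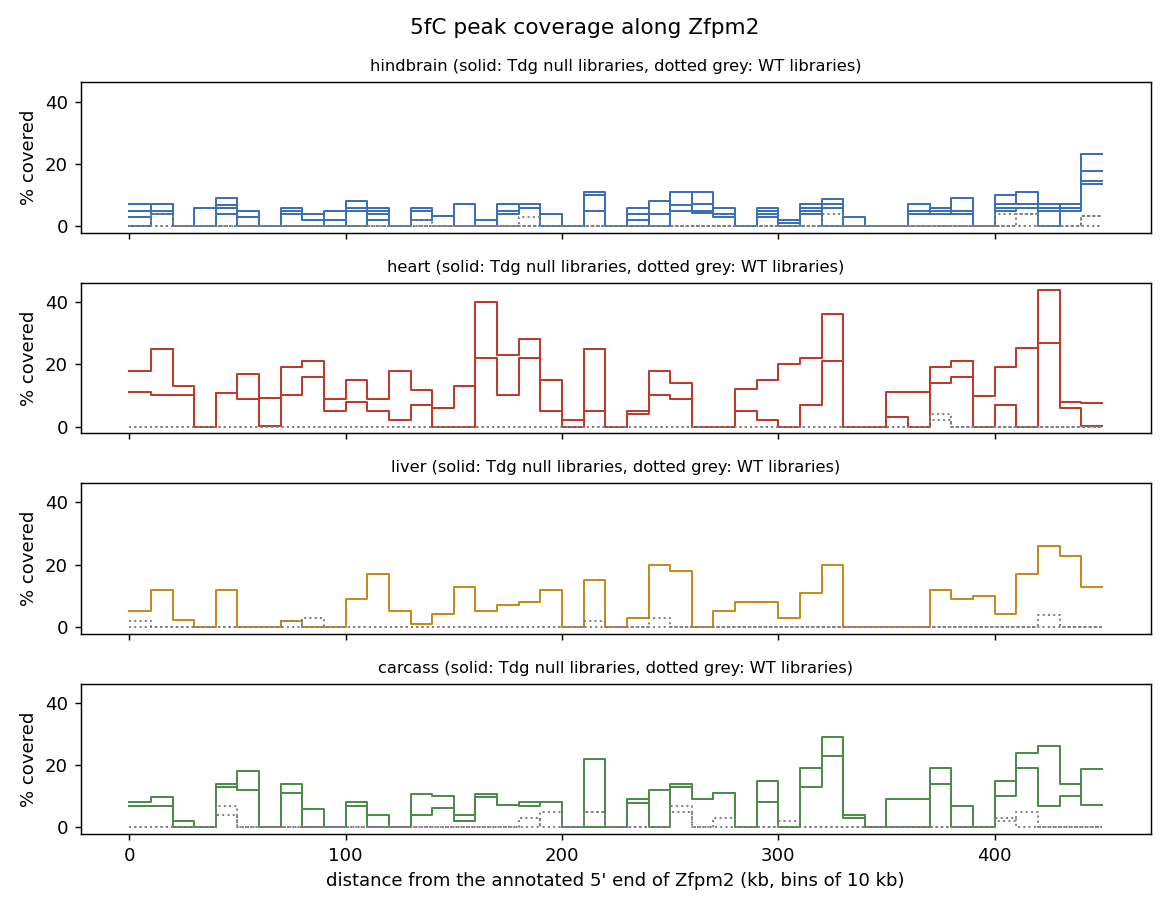
Percent of each 10 kb bin under 5fC peaks along *Zfpm2*, against distance from the annotated 5′ end (kb), with 1 panel per tissue and 1 line per library (solid, null; dotted grey, WT). The mean of the null libraries is highest in the 420 kb bin in heart and liver, in the 320 kb bin in carcass and in the 440 kb bin in hindbrain.

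Start sites were mostly outside peaks. Within 500 bases of the annotated 5′ ends of the 8 genes, no null hindbrain, null carcass or WT library had a peak, whereas null heart i1 had peaks at 3 genes (*Gata2*, *Gata4* and *Gata5*) and null heart i5 and the null liver at 1 each (*Gata5*). Over all genes the share of 5′ ends with a peak was 20.7% and 9.42% in the null hearts, 7.45% in the null liver, 8.29% to 11.3% in the null hindbrains and 12.0% and 15.7% in the null carcasses. An inner annotated *Gata4* start, 58.1 kb into the gene, had a peak in both null hearts and in the null liver.

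The windows differed in base composition. *Zfpm1* was rich in G and C (56.4%, above 99.6% of gene windows), whereas *Zfpm2* was poor (37.3%, above 5.37%). CpG islands, called here from sequence, took up 31.0% of the *Gata2* window, 14.1% of *Gata3*, 11.1% of *Gata6*, 9.37% of *Gata5*, 7.34% of *Zfpm1*, 6.58% of *Gata4*, 0.515% of *Zfpm2* and none of *Gata1*. Bases under both null hearts lay in islands less than the rest of the window at *Gata4* (1.71% against 9.16%), *Gata6* (5.65% against 12.6%), *Gata5* (4.67% against 11.1%) and *Zfpm1* (5.17% against 9.85%). Over the genome, 0.733% of the bases under both null hearts and 0.912% of all bases were in islands. At *Zfpm2* the covered bases held 1.25 CG dinucleotides per 100 bases and the others 0.598, while at *Gata4* the covered bases held fewer (1.28 against 1.74). The GATA letters occurred 1.33 times per kb in the covered *Gata4* bases and 0.720 times elsewhere in that window, beside 1.40 under both null hearts over the genome and 1.45 in the genome. At *Zfpm1* the figures were 1.32 and 0.763, at *Gata6* 0.957 and 1.097 and at *Zfpm2* 2.10 and 2.01, so *Gata6* ran the other way and *Zfpm2* was nearly level.

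Genes that work with GATA factors or FOG proteins, and other genes with GATA-type zinc fingers, were read from 4 lists. Of 10 cardiac partners, 7 had a higher fold in both null hearts than in all null hindbrain and carcass libraries (24.1% of all genes), and for 4 the null liver lay above those libraries as well (12.8% of all genes). Among the 7, mean null heart folds were 4.16 for *Tbx5*, which controls chamber and septum formation, 2.96 for *Tbx20* and 2.44 for *Mef2c*. *Smarcd3*, a heart-enriched subunit of chromatin remodelling complexes, gave 5.79. *Hand2*, *Mef2a* and *Isl1*, also among the 7, were lower, at 1.101, 1.09 and 0.753. *Srf* and *Hand1* instead had a higher mean fold in null hindbrain (2.17 and 1.07) than in null heart (1.77 and 0.523). *Srf* was also higher in null carcass (2.02) than in null heart. *Nkx2-5*, an early marker of heart muscle precursors, was covered over 13.95% of its window in null heart i1 and had no peak in null heart i5 or in any other null library. Of 10 blood partners 3 were higher in both null hearts than in null hindbrain and carcass, and for 2 of them the null liver value exceeded the heart mean (*Cbfa2t3*, 9.93 against 6.71, and *Nfe2*, 2.55 against 2.34). *Tcf3* was instead higher in null hindbrain than in heart and carcass (7.15% of all genes), and *Tal1*, a core partner of GATA1, had no peak in any null library.

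FOG proteins bind the NuRD and CtBP complexes, and 13 of their co-repressor genes were listed. Of these, 6 were higher in null heart than in null hindbrain and carcass (24.1% of all genes). Mean null heart folds were 5.74 for *Ctbp2*, 5.24 for *Mbd2*, 5.22 for *Mta1*, 2.38 for *Gatad2a*, 1.66 for *Ctbp1* and 0.506 for *Gatad2b*. *Mta2*, *Hdac1*, *Rbbp4* and *Rbbp7* instead had a higher mean fold in null hindbrain than in null heart. Of 4 other genes with GATA-type zinc fingers, *Rere* was higher in null heart (4.50), a count at the share of all genes. *Trps1*, of the same list, was higher in null carcass (2.91, against 1.06 in heart), as were 4.01% of all genes. Null hearts lay above WT hearts for 8 of 10, 9 of 10, 11 of 13 and 4 of 4 genes of the cardiac, blood, co-repressor and zinc finger lists (63.9% of all genes). The corresponding counts were 7, 8, 11 and 4 in hindbrain (55% of all genes) and 5, 9, 11 and 4 in carcass (60.3%). The 5 of 10 cardiac partners in carcass lay near the share of all genes. The median null heart fold was 1.43, 2.18, 1.66 and 2.35 for these lists, below the 3.63 of the 8 genes, and the median null liver fold was 0.391, 2.07, 1.26 and 2.54. For the blood partners the median null hindbrain fold, 2.28, was above that in heart.

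Over the 9 null libraries, the fold over genome of *Gata4* ran with those of *Gata6* (Pearson r = 0.960), *Zfpm1* (0.958), *Gata5* (0.958), *Gata1* (0.940) and *Zfpm2* (0.840), less with *Gata3* (0.728) and least with *Gata2* (0.297). Among 12832 other genes of at least 10 kb, those most like *Gata4* were *Vmn2r2* (0.999), *Dnahc7a* (0.999), *Ampd1* (0.997), *Man2b1* (0.997) and *Dsg1a* (0.997). Apart from *Ampd1*, at 2.71 in null heart, these genes were covered at or below the genome level there, at 0.202 to 0.855. The libraries behind these values share embryos across tissues and come from 4 tissues, so the correlations are given as a description.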

How the data were processed

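5fC pull-down libraries of hindbrain, heart, liver and carcass were analysed. The deposited files list, for each library, the chromosome, start and end of peaks; no other quantity is given, and the authors recorded positions on a grid of 100 bases. Per the study's methods, the authors trimmed reads with Trim Galore, aligned them with Bowtie2 and called peaks with MACS within SeqMonk for each pull-down alone; the use of input and of duplicate removal is not given in the sources used here. The 8 genes and the gene lists were chosen with earlier results of these data known. The named genes were the 8 members, the stretches covered in most null libraries or in 1 tissue only, and the 5 genes most like *Gata4*. Genes named from the lists, and stretches covered in heart with liver or in WT libraries, were chosen after their values were seen.

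Overlapping peaks were merged and the bases under them were counted in each gene body plus 5 kb with Python 3.11.15, numpy 2.4.6 and pandas 2.3.3, using the NCBIM37 gene annotation. Groups were called separate when every library of one exceeded every library of the other, and the same call was made for all 22367 protein-coding genes. CpG islands were windows of at least 500 bases with at least 55% G and C and an observed over expected CpG ratio of at least 0.65 (21329 islands). The counting was tested on simulated peaks. Gene lists held cardiac partners, blood partners, co-repressors bound by FOG proteins and other GATA-type zinc finger genes. Null and WT embryos were paired by litter in the labels, and the paired counts equalled the unpaired ones. Alternatives were other windows, peaks of at least 600 bp, peak number, other scalings, pairing and leaving out each library.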

Additional observations from a re-analysis of the deposited data

Results flagged for a closer look

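In 4 cases a single hindbrain library stood apart from the other 3 of its group by Dixon's gap criterion. In 3 of these cases the other libraries were all at 0, so that a peak in 1 library alone met the criterion by construction, and no chance rate applies to them. *Gata2* was covered over 2.16% of its window in null hindbrain A and 0 in the others. *Zfpm1* was covered over 5.99% in null hindbrain O, below the others, in the null hindbrain library with the fewest peaks (104110). In WT hindbrain Q, *Gata4* was covered over 0.967% and *Zfpm1* over 2.30%, with 0 in the other WT hindbrains, and that library held 21606 peaks, the most of its group.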

How the results depend on the processing

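Measured as fold over genome, the count of genes with null above WT moved from 6 to 3 in hindbrain and from 6 to 3 in carcass. With the null liver library i5 included, 0 genes had a peak in both null livers, against 7 in i1 alone. The other alternatives stayed within 1.5 times the stated counts: over all of them, the heart genotype count ranged from 6 to 8 and the count higher in null heart than in null hindbrain and carcass from 5 to 7, while the counts highest in hindbrain or carcass stayed at 0. Over gene bodies without flanks the genotype count was 4 in hindbrain and 4 in carcass, and by peaks per kb 5 in hindbrain and 4 in carcass; the share of all genes was not computed for these measures. Leaving out single libraries gave 6 throughout in hindbrain and carcass, 7 to 8 in heart (8 without null heart i5) and 6 to 7 between tissues, where 7 arose without null hindbrain A or without either null heart. With pairing by litter the genotype counts were 6 in hindbrain, 7 in heart and 6 in carcass. With pairing of heart and carcass within an embryo, 7 genes were higher in heart and 0 in carcass. Hindbrain came from other embryos and could not be paired in this way. This call therefore asks less than the one over all null hindbrain and carcass libraries, and no share of all genes is given for it. Peak positions carry no depth, 2 libraries a group give no reliable spread, and null liver has a single library.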
